A study of Mus musculus with 6 samples.

Results

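CREM and its surroundings in the cyclic AMP pathway were followed through 9 genes chosen by name: Crem, Creb1, Atf1, Crtc2, Prkar1a, Pde3b, Pde4b, Pde4d and Pde7a. Of the 9, 8 had at least 1 probe set that names the gene alone, among 18194 genes so measured. The 8 genes had 31 such probe sets, of which 25 had a mean signal above the array medians. The only probe set for Atf1 also names the pseudogene Atf1-ps, so Atf1 was given no value.

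The cells were CD4 T cells from the spleens of C57BL/6 mice, and their RNA was hybridized to 6 oligonucleotide arrays, 1 array per condition. Effector Th2 cells, called Th2-1st, came from 1 cycle of 5 days in culture, with IL-4 at 100 U/ml and IL-2 at 25 U/ml. Th2-4th cells, the fully developed ones, went on through repeated cycles, each with 2 days without added cytokine and then 5 days of restimulation with IL-2 and an antibody that blocks IL-4, up to cycle 4. Cells of all 6 conditions were transfected with an siRNA. In each culture, control siRNA cells were taken unstimulated, control siRNA cells were taken after 4 h of anti-TCR stimulation, and GATA3 siRNA cells were taken after 4 h of the same stimulation, begun 24 h after transfection. The number of mice behind an array is not given in the sources used here, and no untransfected cells were on the arrays analysed.

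Cyclic AMP is made by adenylyl cyclases when receptors coupled to the stimulatory G protein are engaged, and it is broken down by phosphodiesterases. It releases the catalytic subunits of protein kinase A (PKA) from their regulatory subunits, and PKA then phosphorylates CREB, CREM and ATF1, which bind cyclic AMP response elements in DNA. The Crem gene gives activating isoforms and repressing ones, among them the inducible repressor ICER. In T cells, raised cyclic AMP dampens signalling from the TCR.

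Each probe set has 1 linear signal intensity per array, and the arrays had been scaled to the same trimmed mean. The median signal ran from 61.8 to 74.2. With 1 array per condition there was no replicate error and no p-value. A signal ratio above 2 or below 0.5 was counted as past 2-fold, as in the methods of the study. Beside each log2 ratio stands a spread, the robust SD of the log2 ratio among the 500 genes nearest in signal in that comparison, which holds real differences too. Gata3, the target of the siRNA, read 4883 in control and 1798 in GATA3 siRNA cells of the stimulated Th2-1st culture, a log2 ratio of -1.44 (spread 0.17). In the stimulated Th2-4th culture it read 9261 and 2853, a log2 ratio of -1.70 (spread 0.20). All 5 T cell markers (Cd3e, Cd3d, Cd3g, Cd4 and Cd28) lay above the array median on all 6 arrays. Of the Th2 markers, Gata3, Il4 and Il5 did so on all 6 and Il13 on 4. The 3 B cell markers measured summed to 74.5 to 169, the 4 myeloid markers to 111 to 225, and neither list had a gene above the median on all arrays. Both CD8 T cell markers lay above the median on all arrays, with sums of 234 to 596. The 4 mast cell and basophil markers summed to 148 to 1222, with Fcer1a and Kit below the median on all arrays. Cpa3, one of the 4, read 255 in control and 67.7 in GATA3 siRNA cells of the stimulated Th2-1st culture, and 320 and 44.9 in those of the Th2-4th culture. Mcpt8, another, read 873 in control and 171 in GATA3 siRNA cells of the stimulated Th2-4th culture. Markers also moved with stimulation and between cultures. Cpa3 read 562 in unstimulated and 255 in stimulated Th2-1st control cells, and 582 and 320 in those of the Th2-4th culture. Mcpt8 read 3.01 in unstimulated and 7.63 in stimulated Th2-1st control cells, against 183 and 873 in the Th2-4th culture. The CD8 T cell marker Cd8b1 read 342 in unstimulated Th2-1st and 110.4 in unstimulated Th2-4th control cells. Cd8a, the other such marker, did not follow, reading 126 and 124 in these. In stimulated control cells of the respective cultures Cd8b1 read 313 and 163, and Cd8a 162 and 217. The part of these genes in the values that follow was not tested.

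For 3 genes, 1 promoter window each is printed, to show a full cyclic AMP response element, its core alone and neither. For Prkar1a, with 6 windows, and Pde4b, with 4, the window with the most matches was chosen, while Pde4d has 1 window, so the 3 do not compare the genes. Each window holds the 250 bases before a transcription start in RefSeq (GRCm38.p6), on the plus strand of Prkar1a chr11:109650699-109650948, Pde4b chr4:102421305-102421554 and Pde4d chr13:108653927-108654176. Capitals mark the full element TGACGTCA and its core TGACG, searched on both strands, so that the core reads CGTCA on the other strand and also lies in the full element.
Prkar1a: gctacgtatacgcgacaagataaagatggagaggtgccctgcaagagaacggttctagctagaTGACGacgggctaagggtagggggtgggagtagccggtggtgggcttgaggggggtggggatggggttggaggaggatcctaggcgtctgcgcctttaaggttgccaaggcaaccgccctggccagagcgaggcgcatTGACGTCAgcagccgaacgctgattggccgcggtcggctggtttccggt
Pde4b: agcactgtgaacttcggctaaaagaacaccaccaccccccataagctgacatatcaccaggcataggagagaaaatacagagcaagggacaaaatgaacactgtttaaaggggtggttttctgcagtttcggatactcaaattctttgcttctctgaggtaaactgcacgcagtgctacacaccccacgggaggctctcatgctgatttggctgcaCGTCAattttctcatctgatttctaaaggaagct
Pde4d: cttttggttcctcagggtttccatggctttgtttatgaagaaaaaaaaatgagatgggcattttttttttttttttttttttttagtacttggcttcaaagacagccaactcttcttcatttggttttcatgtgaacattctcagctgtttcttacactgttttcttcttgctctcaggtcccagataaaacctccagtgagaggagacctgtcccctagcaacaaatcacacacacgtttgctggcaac
The Prkar1a window held the full element from 49 to 42 bases before the start and a core from 187 to 183 bases before it. In the Pde4b window a core lay from 34 to 30 bases before the start, and the Pde4d window held neither. Windows of 5 of the genes were found, 13 in all, for Creb1, Atf1, Prkar1a, Pde4b and Pde4d, and 1 of the 13 held the full element and 5 the core. Of the 6 Prkar1a windows, 3 held neither, and so did 3 of the 4 Pde4b windows. The 5 windows with the core include 2 overlapping Prkar1a windows that share a core. Of 32851 mouse windows of the same length, 508 (1.55%) held the full element and 5836 (17.8%) held the core. A match describes the letters of the window and not binding there.

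Crem was the only gene of the 8 whose signal was more than 2-fold higher after anti-TCR stimulation in Th2-1st cells, and among unstimulated cells it was more than 2-fold higher in Th2-4th than in Th2-1st cells. Its brightest probe set, 1449037_at, gave a signal of 662 on the unstimulated Th2-1st array, of 2664 on the stimulated control array and of 1400 on the GATA3 siRNA array. The 3 arrays of the Th2-4th culture gave 1759, 2802 and 2179. The unstimulated Th2-1st array stood lowest, and the stimulated control arrays of both cultures stood highest and close together. In bulk RNA, a change in the number of cells of a type and a change in RNA per cell cannot be told apart.

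After stimulation the Crem signal was 4.03-fold higher in Th2-1st cells, a log2 ratio of 2.01 (spread 0.74). Among genes above the array median in that pair, 7.58% had a log2 ratio at least as far from 0. In Th2-4th cells it was 1.59-fold higher, a log2 ratio of 0.67 (spread 0.96), which lay within 2-fold and within the spread. The response in log2 terms was 1.34 smaller in Th2-4th cells, a log2 difference of -1.34 that ran from -1.34 to -0.96 over the 3 probe sets above the median. This difference between cultures has no replicate check and was not tested. Unstimulated Th2-4th cells read 2.66-fold above unstimulated Th2-1st cells, a log2 ratio of 1.41 (spread 0.63), whereas the stimulated cells of both cultures differed by a log2 ratio of 0.07 (spread 0.56). Beside these stimulation and culture values stand those of Cpa3, Mcpt8, Cd8b1 and Cd8a above, and their part was not tested.

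With GATA3 siRNA the Crem signal lay below that of control siRNA in both cultures, within 2-fold. The log2 ratio was -0.93 (spread 0.16) in Th2-1st cells, which is 1.90-fold lower, and 7.58% of genes above the median lay at least as far from 0. It was -0.36 (spread 0.23) in Th2-4th cells. The mast cell and basophil marker Cpa3 was lower with GATA3 siRNA in both cultures too, and its bearing on Crem was not tested. The GATA3 siRNA ratio and the anti-TCR ratio of a culture share the stimulated control array, so a high or low reading on that array moves both, in opposite directions. In ascending order the signals ran from unstimulated Th2-1st, GATA3 siRNA Th2-1st, unstimulated Th2-4th, GATA3 siRNA Th2-4th and stimulated Th2-1st to stimulated Th2-4th cells. Of the 5 steps in that order, the first, with a log2 gap of 1.08, exceeded the spread of 0.77 for that pair of arrays, and the other steps did not exceed theirs.

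The other probe sets of Crem did not all follow the brightest one. Probe set 1418322_at read 319, 1191 and 691 in unstimulated, stimulated and GATA3 siRNA Th2-1st cells. Its Th2-4th signals were 817, 1276 and 1158, so the order within each culture was the same. Probe set 1430598_at lay near the array medians and gave signals of 58.2, 93.0 and 118 in the Th2-1st culture and 113, 92.9 and 107 in the Th2-4th culture, so with GATA3 siRNA it was higher than with control siRNA in both cultures. Probe set 1430847_a_at was above the median on 1 array. Which Crem isoforms, ICER included, each probe set reads was not determined here.

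**Figure D1:**
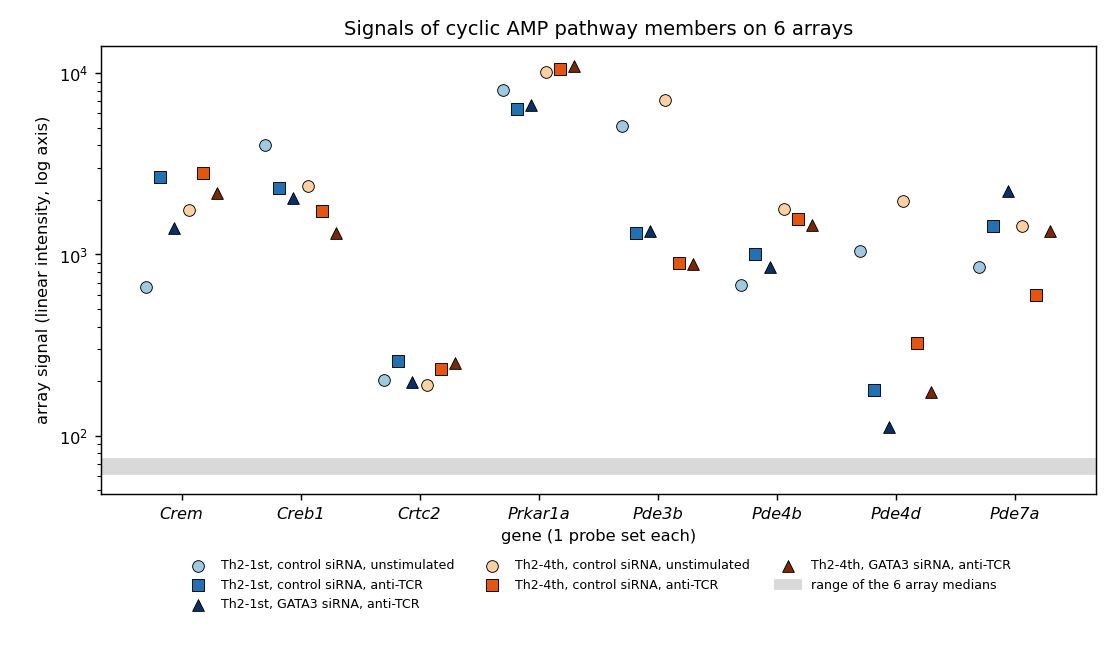
Signal of each gene (1 probe set, log axis, linear intensity) on the 6 arrays, with circles for unstimulated control siRNA cells, squares for stimulated control siRNA cells, triangles for stimulated GATA3 siRNA cells, blue for Th2-1st, orange for Th2-4th and a grey band for the range of the array medians. Pde3b and Pde4d each had their own highest signals in unstimulated cells of both cultures. Crem had its lowest in unstimulated Th2-1st cells at 662, and all values lay above the band.

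By its brightest probe set Creb1, which codes for the founding CREB factor, ran lower rather than higher after stimulation and lower in Th2-4th cells, with no ratio past 2-fold. Its brightest probe set, 1452901_at, read 4016, 2319 and 2051 in unstimulated, stimulated and GATA3 siRNA Th2-1st cells. In Th2-4th cells it read 2376, 1727 and 1306. The highest value was that of unstimulated Th2-1st cells and the lowest that of GATA3 siRNA Th2-4th cells. The anti-TCR log2 ratio was -0.79 (spread 0.60) in Th2-1st and -0.46 (spread 0.97) in Th2-4th cells, and the GATA3 siRNA log2 ratio was -0.18 (spread 0.17) and -0.40 (spread 0.24). In unstimulated cells, Th2-4th over Th2-1st gave a log2 ratio of -0.76 (spread 0.57), and all 5 Creb1 probe sets above the median were lower there, from -1.35 to -0.76, of which 2 were past 2-fold. All 5 were also lower with GATA3 siRNA in Th2-1st cells (-0.73 to -0.18) and after stimulation of Th2-1st cells. In stimulated control cells all 5 were lower in Th2-4th than in Th2-1st cells, from -0.89 to -0.07. Within the Th2-4th culture they did not share a direction, either on stimulation or with GATA3 siRNA (-0.88 to 0.01). After stimulation 3 were higher there and 2 lower, and 1421582_a_at had an anti-TCR log2 ratio of 1.02 where the brightest had -0.46.

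Crtc2, a coactivator that moves to the nucleus and binds CREB, lay within 2-fold in all 6 comparisons. It read 204, 258 and 197 in unstimulated, stimulated and GATA3 siRNA Th2-1st cells, then 189.7, 235 and 253 in the Th2-4th culture. No step between neighbouring values exceeded the spread. Its second probe set, 1429373_x_at, may cross-hybridise by its name and gave a GATA3 siRNA log2 ratio in Th2-4th cells of -0.19, against 0.11 for the first.

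Prkar1a, a regulatory subunit that holds PKA inactive, lay within 2-fold in every comparison as well. It read 8089.9, 6321 and 6699.9 in unstimulated, stimulated and GATA3 siRNA Th2-1st cells, then 10177, 10608 and 10978 in the Th2-4th culture. By this probe set, 1452032_at, all 3 Th2-4th arrays read above all 3 Th2-1st arrays, and no step between neighbouring values exceeded its spread. That order did not hold for 1425550_a_at, which read 8052 in unstimulated Th2-1st and 7986 in unstimulated Th2-4th cells. The log2 ratio farthest from 0 was 0.75 (spread 0.51) for stimulated Th2-4th over Th2-1st control cells, and probe set 1425550_a_at gave 0.13 there. The log2 ratio for GATA3 siRNA was 0.08 (spread 0.13) in Th2-1st and 0.05 (spread 0.17) in Th2-4th cells. Probe set 1425550_a_at gave -0.09 and 0.03. The dimmest probe set, 1447635_at, was higher with GATA3 siRNA in both cultures, at 0.71 (79.3 to 129.8) and 0.53 (105.1 to 151.9).

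Of the 4 phosphodiesterases, Pde3b and Pde4d were more than 2-fold lower after stimulation in both cultures, Pde7a was so in Th2-4th cells, and Pde4b lay within 2-fold in both. Pde3b, whose enzyme is inhibited by cyclic GMP, has 1 probe set (1433694_at), which read 5126, 1316 and 1354 in unstimulated, stimulated and GATA3 siRNA Th2-1st cells. In Th2-4th cells it read 7141, 899.8 and 883. Both unstimulated arrays stood far above the 4 stimulated ones. The anti-TCR log2 ratio was -1.96 (spread 0.73) in Th2-1st cells, 3.90-fold lower, and -2.99 (spread 0.90) in Th2-4th cells, 7.94-fold lower. In the above-median genes of those pairs, 7.93% and 4.04% lay at least as far from 0. The GATA3 siRNA log2 ratio was 0.04 (spread 0.18) and -0.03 (spread 0.27).

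Pde4d, a phosphodiesterase specific for cyclic AMP, ran the same way and was also lower with GATA3 siRNA. Probe set 1435280_at read 1042, 178 and 111 in unstimulated, stimulated and GATA3 siRNA Th2-1st cells, then 1978, 324 and 175 in the Th2-4th culture. Within each culture the unstimulated array stood highest and the GATA3 siRNA array lowest. After stimulation the signal was 5.85-fold lower in Th2-1st cells (log2 ratio -2.55, spread 0.80) and 6.11-fold lower in Th2-4th cells (log2 ratio -2.61, spread 0.88). With GATA3 siRNA the log2 ratio was -0.68 (spread 0.43) in Th2-1st and -0.89 (spread 0.39) in Th2-4th cells, both within 2-fold. The second probe set, 1459311_at, was below the median on all 6 arrays, at 1.12 to 25.1, so its ratios (4.33 after stimulation of Th2-1st cells, on the log2 scale) rest on dim signals.

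Pde4b, of the same family as Pde4d, differed between cultures in unstimulated cells rather than on stimulation. Probe set 1442700_at read 679, 1006 and 852 in unstimulated, stimulated and GATA3 siRNA Th2-1st cells, then 1793, 1569 and 1462 in the Th2-4th culture. By this probe set all 3 Th2-4th arrays read above all 3 Th2-1st arrays, but the log2 step between the cultures, 0.54, was within its spread of 0.59. That order did not hold for 1422474_at, which read 701 in stimulated Th2-1st and 663 in GATA3 siRNA Th2-4th cells. By 1442700_at unstimulated Th2-4th cells read 2.64-fold above Th2-1st cells, a log2 ratio of 1.40 (spread 0.61). All 3 probe sets above the median were past 2-fold there (1.09 to 1.40). The anti-TCR log2 ratio was 0.57 (spread 0.73) in Th2-1st and -0.19 (spread 0.86) in Th2-4th cells, and the 3 probe sets shared the sign in each culture. The other 3 probe sets lay below the median on all arrays.

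Pde7a, a phosphodiesterase specific for cyclic AMP that is prominent in T cells, was the one gene of the 8 that was past 2-fold with GATA3 siRNA. Probe set 1458218_s_at read 849, 1434 and 2229 in unstimulated, stimulated and GATA3 siRNA Th2-1st cells. In Th2-4th cells it read 1432, 597 and 1354. The GATA3 siRNA array stood highest of the 3 in Th2-1st cells, while in Th2-4th cells it lay close to the unstimulated array and the stimulated control array stood lowest. With GATA3 siRNA the log2 ratio was 1.18 (spread 0.27) in Th2-4th cells, 2.27-fold higher, and 4.74% of genes above the median lay at least as far from 0. In Th2-1st cells it was 0.64 (spread 0.18). All 7 probe sets of Pde7a were higher with GATA3 siRNA in both cultures, by 0.22 to 0.82 in Th2-1st and 0.70 to 1.24 in Th2-4th cells on the log2 scale, and 4 of the 7 were past 2-fold in Th2-4th cells. The brightest probe set is of the kind (_s_at) that can match several transcripts. The brightest that is not, 1439484_at, gave a Th2-4th log2 ratio of 0.88, within 2-fold. Of the others that are not _s_at, 1438041_at gave 1.22 and 1451839_a_at 1.02, while 1450933_at gave 0.91 and 1423313_at 0.70.

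On stimulation Pde7a gave a log2 ratio of 0.76 (spread 0.74) in Th2-1st and -1.26 (spread 0.99) in Th2-4th cells. All 7 probe sets were lower in stimulated Th2-4th cells, from -2.08 to -0.46, and 6 of them past 2-fold. In Th2-1st cells 5 were higher and 2 lower, from -0.16 to 0.76, and the brightest that is not _s_at, 1439484_at, gave -0.06. Stimulated Th2-4th cells read 2.40-fold below stimulated Th2-1st cells, a log2 ratio of -1.27 (spread 0.58). All 7 probe sets were lower there, from -1.27 to -0.37, and 4 of them past 2-fold, while the mean over probe sets lay just within 2-fold. The Th2-4th ratios for GATA3 siRNA, for stimulation and for stimulated cells between cultures all use the stimulated Th2-4th control array, on which Pde7a was lowest.

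**Figure D2:**
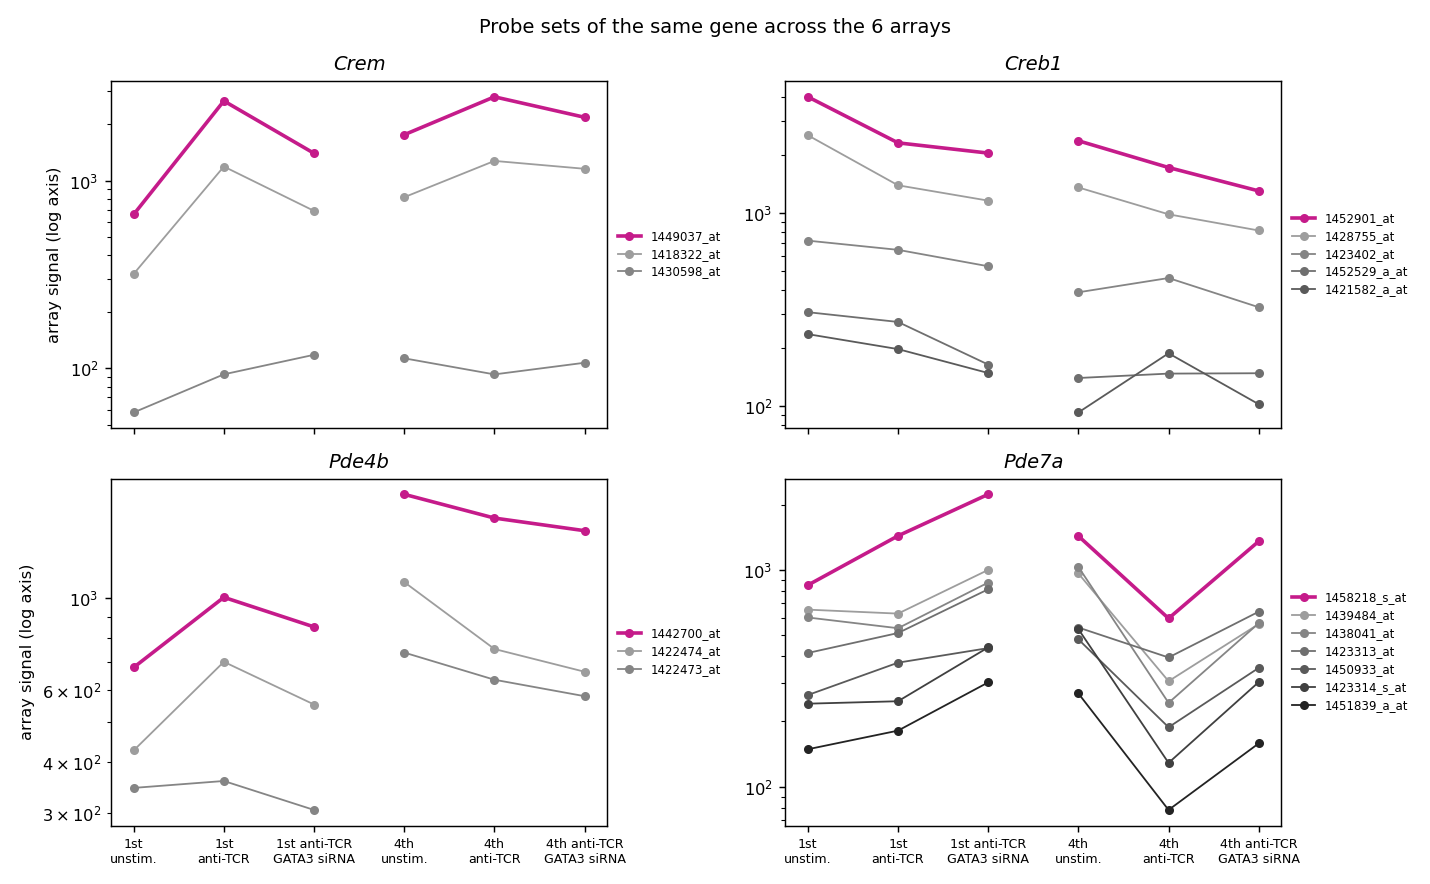
Signals (log axis, linear intensity) of every probe set with a mean above the array medians for Crem, Creb1, Pde4b and Pde7a, in the 3 conditions of each culture, with the probe set that stands for the gene in magenta. The 7 Pde7a probe sets dip together in stimulated Th2-4th control cells, and the dimmest Crem probe set does not share the stimulation peak of the other 2.

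The 8 genes were then counted past 2-fold in each comparison, beside all 18194 genes and beside the genes whose higher signal of the pair lay above the array median, as it did for all 8 genes in every pair. With GATA3 siRNA in Th2-1st cells none of the 8 was past 2-fold, where 13.3% of all genes were higher and 7.49% lower, or 4.41% and 2.26% of genes above the median. With GATA3 siRNA in Th2-4th cells, 1 of 8 was higher (Pde7a) and none lower, where 10.6% of all genes were higher and 10.6% lower, or 3.00% and 3.49% above the median. The median log2 ratio of the 8 genes was -0.21 and -0.06 in the respective cultures, against 0.05 and 0.01 over all genes.

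After stimulation of Th2-1st cells, 1 of 8 was higher (Crem) and 2 lower (Pde3b and Pde4d), where 17.5% of all genes were higher and 16.9% lower, or 10.7% and 16.7% above the median. After stimulation of Th2-4th cells none was higher and 3 of 8 were lower (Pde3b, Pde4d and Pde7a), where 18.7% of all genes were higher and 21.6% lower, or 14.6% and 21.0% above the median. Pde3b and Pde4d were thus lower in both cultures, as were 1272 (12.2%) of the 10429 genes above the median in both pairs. With 8 genes, a difference of 1 or 2 genes from these shares says little.

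Between cultures, unstimulated Th2-4th cells had 2 of 8 higher (Crem and Pde4b) and none lower, where 19.5% of all genes were higher and 12.3% lower, or 11.9% and 9.22% above the median. Stimulated Th2-4th cells had none higher and 1 of 8 lower (Pde7a), where 17.2% of all genes were higher and 12.7% lower, or 11.4% and 7.93% above the median. The median log2 ratio of the 8 genes was 0.62 in unstimulated cells, against 0.17 over all genes.

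**Figure D3:**
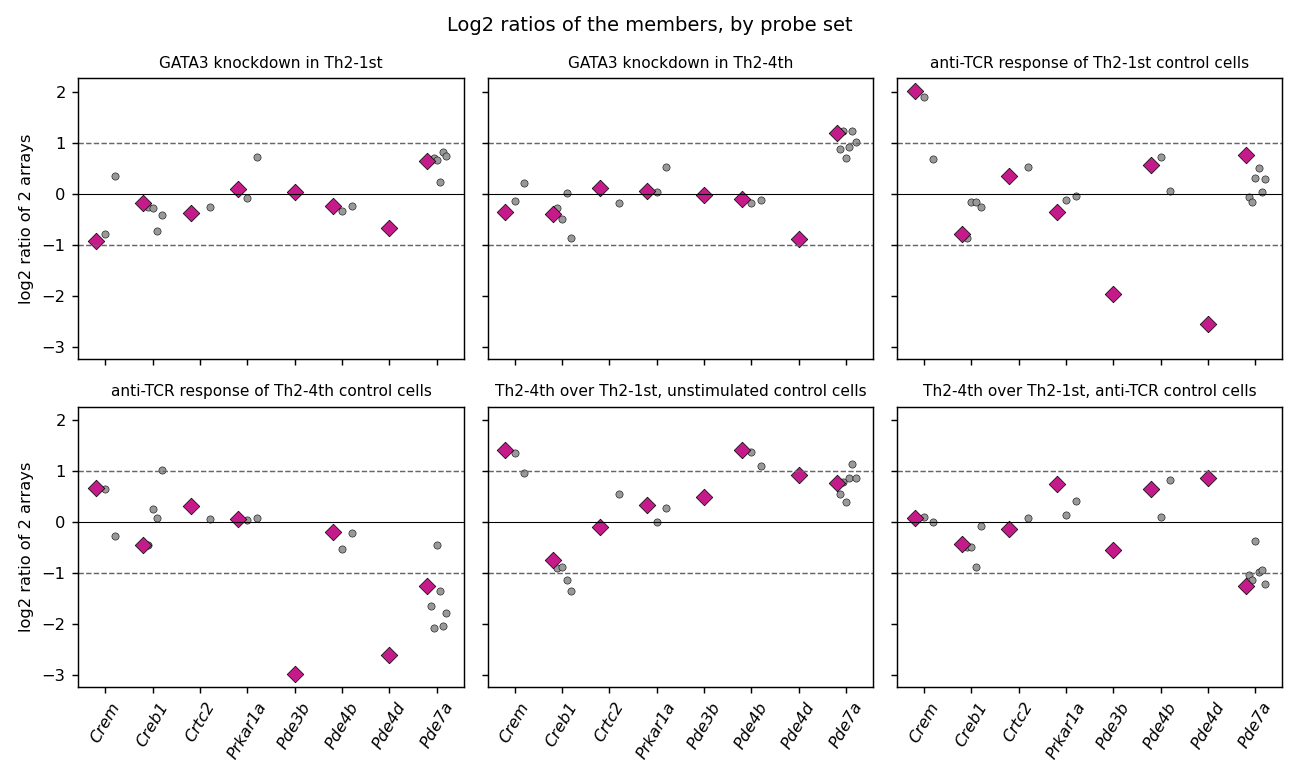
Log2 ratio of 2 arrays for each gene in the 6 comparisons, with a magenta diamond for the probe set that stands for the gene, grey points for its other probe sets above the median and dashed lines at 2-fold. The diamonds of Pde3b and Pde4d lie below the lower line in both anti-TCR panels, that of Crem above the upper line in Th2-1st (2.01) but not in Th2-4th cells (0.67).

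The rest of the pathway was read from 93 further genes listed by their textbook role, of which 87 had a probe set naming them alone. Of the 87, 45 lay above the median on all 6 arrays and 20 below it on all. Over all 87, GATA3 siRNA put 8 higher and 4 lower in Th2-1st cells, beside 13.3% and 7.49% of all genes. In Th2-4th cells it put 5 higher and 13 lower, beside 10.6% and 10.6%. Stimulation put 17 higher and 17 lower in Th2-1st cells, beside 17.5% and 16.9%, and 24 higher and 15 lower in Th2-4th cells, beside 18.7% and 21.6%. In unstimulated Th2-4th over Th2-1st cells 14 were higher and 7 lower, beside 19.5% and 12.3%, and in stimulated cells 22 were higher and 6 lower, beside 17.2% and 12.7%. The counts below are of genes whose higher signal of the pair was above the array median, and these were 59 to 65 of the 87.

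Of the receptors, Ptger2 and Calcrl were more than 2-fold higher after stimulation of Th2-1st cells and Ptger4 and Calcrl after stimulation of Th2-4th cells. Ptger2, a prostaglandin E2 receptor that raises cyclic AMP, read 1455 in unstimulated and 5376 in stimulated Th2-1st control cells, and 3883 and 7399 in Th2-4th cells. Ptger4, another such receptor, read 4404 in unstimulated, 11789 in stimulated and 5845 in GATA3 siRNA Th2-4th cells. Calcrl, a receptor component for calcitonin gene-related peptide and adrenomedullin, had an anti-TCR log2 ratio of 2.32 in the Th2-1st and of 1.75 in the Th2-4th culture. Ptgir, the prostacyclin receptor, ran the other way, reading 1484 in unstimulated, 488 in stimulated and 213 in GATA3 siRNA Th2-1st cells. In Th2-4th control cells it read 1225 unstimulated and 613 stimulated, just within 2-fold. Its log2 ratio with GATA3 siRNA was -1.20 in the Th2-1st and -0.72 in the Th2-4th culture. Hrh2, above the median on 4 arrays, was also lower after stimulation of Th2-1st cells (144 to 34.2), but not of Th2-4th cells (108 to 119).

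Among G protein genes, Rgs1 and Rgs2, regulators that shut off G protein signalling, and Gnai1, an inhibitory subunit, were more than 2-fold higher after stimulation in both cultures. Rgs2 read 192 in unstimulated and 3220 in stimulated Th2-1st control cells, and 1156 and 3956 in Th2-4th cells. Gnai1 was also lower with GATA3 siRNA in both cultures, with log2 ratios of -1.92 and -2.27, from a dim probe set that was above the median on 3 arrays.

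Of the adenylyl cyclases above the median, 3 of 6 were more than 2-fold lower on stimulation of Th2-1st cells and none higher, beside 16.7% lower and 10.7% higher of all genes above the median. In Th2-4th cells 2 of 7 were lower and 1 higher, beside 21.0% and 14.6%. Adcy7 read 6779 in unstimulated and 2235 in stimulated Th2-1st control cells, and 12532 and 4739 in Th2-4th cells. Adcy6 gave log2 ratios of -2.66 and -1.87. Adcy3 was lower in Th2-1st cells at -1.22, where its second probe set gave -0.64, within 2-fold. Adcy5, from a probe set above the median on 2 arrays, was higher in stimulated Th2-4th cells. With GATA3 siRNA, Adcy7 lay within 2-fold in both cultures, at 0.06 and 0.27 on the log2 scale. Of the other phosphodiesterases, Pde8a was lower after stimulation of Th2-4th cells (81.0 to 38.4) and higher with GATA3 siRNA there (38.4 to 91.1), all close to the array median.

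PKA subunits were lower on stimulation for Prkacb and Prkar2b in both cultures, and for Prkaca just past the threshold in Th2-1st cells (3632 to 1812), where its second probe set gave a log2 ratio of -0.14. Prkar2a, a regulatory subunit, ran the other way in Th2-4th cells, from 1342 to 2807, a log2 ratio of 1.07. Prkacb, a catalytic subunit, read 3497 in unstimulated, 1311 in stimulated and 3298 in GATA3 siRNA Th2-1st cells, then 3777, 1105 and 1431 in the Th2-4th culture. It was thus higher with GATA3 siRNA than with control siRNA by a log2 ratio of 1.33 in the Th2-1st and 0.37 in the Th2-4th culture. A second Prkacb probe set gave 0.96 with GATA3 siRNA in Th2-1st cells but only -0.05 on stimulation there. On stimulation of Th2-4th cells it gave -0.58, also within 2-fold. Rapgef3, which codes for the cyclic AMP sensor EPAC1, was lower on stimulation in both cultures, from a probe set above the median on 2 arrays.

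Anchoring proteins hold PKA at places in the cell. Akap2 was higher on stimulation in both cultures, with log2 ratios of 3.28 and 1.17, and lower with GATA3 siRNA in both, with -2.28 and -1.48. It read 65.1, 634 and 130 in unstimulated, stimulated and GATA3 siRNA Th2-1st cells, then 56.1, 126 and 45.1 in the Th2-4th culture. The unstimulated and GATA3 siRNA signals of Th2-4th cells lay below the array median. Akap7 was lower on stimulation in both cultures, at -1.19 and -1.35.

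Of the coactivators and their regulators, Crtc3, a relative of Crtc2, and Sik2, a kinase that keeps such coactivators out of the nucleus, were lower on stimulation in both cultures. Crtc3 read 875 in unstimulated and 307 in stimulated Th2-1st control cells, and 1358 and 501 in Th2-4th cells. For Sik2 the second probe set did not follow in Th2-1st cells, with a log2 ratio of 0.11 against -1.04, and gave -0.30 against -1.31 in Th2-4th cells. Ep300 was lower on stimulation of Th2-1st cells, at -1.07. Sik3 went the other way there, from 1976 to 4529, a log2 ratio of 1.20, with 1.47 and 1.51 for its other probe sets. In Th2-4th cells Sik3 lay within 2-fold, at 0.32. None of the 8 genes of this role was past 2-fold with GATA3 siRNA in either culture. Of all genes above the median, this siRNA put 4.41% higher and 2.26% lower in effector cells. The shares were 3.00% and 3.49% in fully developed ones. With 8 genes and shares this small, finding none says little.

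The CREB target genes of textbooks held the highest ratio of the list on stimulation in both cultures, that of Nr4a3, whose unstimulated signals of 6.63 and 67.0 were below the array medians. Fos, Fosb, Junb, Egr1, Nr4a1, Nr4a2 and Nr4a3, all early response genes, were the 7 of 9 above the median that were higher in Th2-1st cells, and the same 7 were higher in Th2-4th cells. Of all genes above the median, 10.7% were more than 2-fold higher after stimulation of effector cells and 14.6% after that of fully developed ones. Fosb was dim in Th2-1st control cells, at 18.4 unstimulated and 63.0 stimulated, where the array median was 61.8. The 7 early response genes also answer to other signals from the TCR. Nr4a2 read 69.9 in unstimulated, 3646 in stimulated and 11129.9 in GATA3 siRNA Th2-1st cells, then 139, 8011 and 11583 in the Th2-4th culture. With GATA3 siRNA, Nr4a2 and Dusp1 were more than 2-fold higher in Th2-1st cells, Dusp1 at 479.8 with control and 1338 with GATA3 siRNA, and Egr1 was lower in Th2-4th cells at -1.12.

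Across the roles, 12 of the 62 pathway genes above the median in both stimulation pairs were higher in both cultures (19.4%), against 7.39% of all 10429 genes so measured, and 7 of the 12 were the early response genes above. The 8 that were lower in both (12.9%, against 12.2%) were Adcy6, Adcy7, Prkacb, Prkar2b, Rapgef3, Akap7, Crtc3 and Sik2. By their second probe sets, Prkacb and Sik2 lay within 2-fold in both cultures. None of the 62 went past 2-fold in opposite directions. With GATA3 siRNA, 2 of 58 were lower in both cultures (Gnai1 and Akap2) and none was higher in both, beside 0.56% lower and 0.52% higher in both of 10291 genes above the median.

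**Figure D4:**
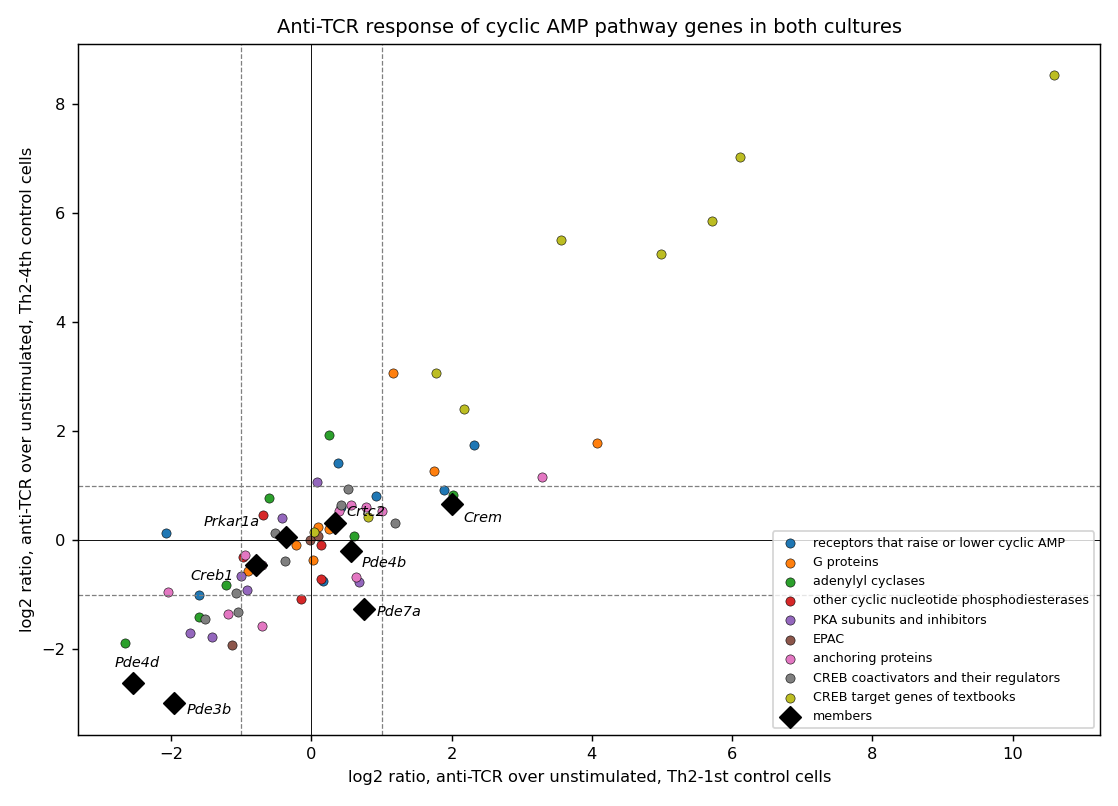
Log2 ratio of stimulated over unstimulated control cells in Th2-1st (x axis) and Th2-4th cells (y axis) for the pathway genes above the median, coloured by role, with black diamonds for the 8 genes and dashed lines at 2-fold. The points farthest up and right are CREB target genes such as Nr4a1 (6.11 and 7.02), whereas Pde3b and Pde4d lie at the lower left and Pde7a lies right of 0 on the x axis and below 0 on the y axis.

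The genes whose pattern over the 6 arrays was most like that of Crem were Elk1, Chd7, Plod3, Jun and Cd300c2, among 10114 genes with a mean signal above the median. Likeness was the root mean square difference of log2 signals, each centred over the arrays, and was 0.18, 0.19, 0.21, 0.23 and 0.25 for the 5. Jun read 204, 1032 and 710.1 in unstimulated, stimulated and GATA3 siRNA Th2-1st cells, then 803, 1290.0 and 851 in the Th2-4th culture. Chd7 read 851, 2641 and 1778 in the Th2-1st culture, then 1758, 3657 and 3002 in the Th2-4th culture. As for Crem, both were lowest in unstimulated Th2-1st cells and highest in stimulated Th2-4th control cells. A profile here holds 6 values, each from 1 array, so the likeness is a description alone.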

How the data were processed

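Affymetrix arrays, 6 in all and 1 per condition, measured RNA from both cultures. The authors deposited 1 linear signal intensity per probe set, made with the Affymetrix Expression Console (version and algorithm not given in the sources used here) and scaled to a common trimmed mean. No scanner file, background value or detection call was used here, so the number of arrays limits the precision.

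Of 45101 probe sets, 34958 named 1 gene, 932 several and 9211 none. Of the 34958, 34754 matched RefSeq symbols. This gave 18194 genes, each represented by the brightest of its probe sets (mean of log2 over the arrays). Log2 ratios were formed for 6 pairs of arrays. Ratios above 2 or below 0.5 were counted, and the spread was 1.4826 times the median absolute deviation among 500 genes of nearest signal. Pathway genes were named only where past 2-fold with the higher signal above the array median, and not all such genes were described. Those that met the rule and were left out include Ptger3, Crhr1, Gng2, Adcy2, Pde1b, Prkar1b, Akap12 and Akap13. For Crem the 5 nearest profiles were named. The genes and lists were chosen with earlier results of these data known. Of 93 pathway genes, 6 were measured by no probe set of their own and are left out.

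Alternatives tried were averaging a gene's probe sets, taking the one with the largest ratio, leaving out probe sets named _x_at or _s_at, centring, quantile normalization, a filter or floor at the array median and a threshold of 3.16-fold. A mean over probe sets above the median was added after the values were seen. Promoter windows came from RefSeq (GRCm38.p6). The counting was tested on simulated data. Python 3.11.15, numpy 2.4.6, pandas 2.3.3 and matplotlib 3.10.9 were used.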

Additional observations from a re-analysis of the deposited data

Results flagged for a closer look

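Pde7a was higher after anti-TCR stimulation in Th2-1st cells and lower in Th2-4th cells, with log2 ratios of 0.76 and -1.26, a difference of -2.02 (from -2.09 to -0.76 over the 7 probe sets). It stood out because the single pair of arrays of each culture moved in opposite directions. The Th2-1st ratio lay within 2-fold and close to its spread of 0.74. There 2 of the 7 probe sets were lower, and the brightest that is not _s_at, 1439484_at, gave -0.06. The difference was not tested, since each condition has 1 array.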

How the results depend on the processing

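Of the 10 ratios of the 8 genes past 2-fold, 9 kept their direction under each of the 8 settings tried at that threshold and 6 stayed past 2-fold under each. The floor and the filter at the array median could not change these ratios, since the probe sets used lay above it on all arrays. Settings that change the choice of probe sets could not change Pde3b, which has 1. The exception in direction was Pde4d after stimulation of Th2-1st cells, with log2 ratios of 0.89 as the mean over probe sets and 4.33 for the probe set with the largest ratio, because its second probe set, below the median on all arrays, then enters. For the counts of the 8 genes past 2-fold, the mean over probe sets put the stimulated culture comparison at 0 (from 1), as did the mean over probe sets above the median, added after the values were seen. The probe set with the largest ratio gave 2 (from 0) and 2 (from 1) for GATA3 siRNA in Th2-1st and Th2-4th cells, 5 (from 3) for stimulation of Th2-4th cells, and 5 (from 2) and 4 (from 1) for unstimulated and stimulated cells between cultures. Without _x_at and _s_at probe sets GATA3 siRNA in Th2-4th cells gave 0. The threshold of 3.16-fold gave 0 for GATA3 siRNA in Th2-4th cells and for both culture comparisons.

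For the pathway genes, in the order GATA3 siRNA in Th2-1st and Th2-4th cells, stimulation of Th2-1st and Th2-4th cells, and Th2-4th over Th2-1st unstimulated and stimulated, the counts were 12, 18, 34, 39, 21 and 28. The probe set with the largest ratio gave 32, 39 and 58 for the opening 3 and 43 and 46 for the last 2. In the other settings that moved counts, a floor at the median gave 5, 5, 22, 11 and 16, genes above the median 6, 10, 25, 12 and 18, and the added mean 6, 6, 23, 12 and 14 (all without stimulation of Th2-1st cells, which stayed within 1.5 times). The threshold of 3.16-fold gave 4, 7, 20, 23, 9 and 12.

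No paired analysis was possible because the conditions compared within a culture have 1 array each, so no replicate was left out. A fit that takes the cultures as pairs was not run, and would give an average over both cultures rather than a value for each. Dim probe sets, with signals near or below the array median, limit the ratios of Adcy1, Adcy5, Pde1a, Pkib, Rapgef3, Akap5 and Gnai1.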
